A study of Mus musculus with 8 samples.

Results

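Among CD8 T cells that infiltrated NIT-1 beta cell grafts, the cluster with the highest level of Tcf7 held 1780 cells, out of 3449 CD8 T cells and 22441 CD45+ cells in all. Its members were chosen by the level of Tcf7 alone. The cells that the authors annotated as CD8 T cells were divided by their deposited clusters (29 in the whole table), clusters under 50 such cells were set aside, and the cluster with the highest summed Tcf7 level was taken. Levels are in CPM, the share that unique molecular identifiers (UMIs) of a gene have in all UMIs of the same cells, times 1000000. Tcf7 stood at 77.3 CPM in this cluster (cluster 3, 393 UMIs, 95% Poisson interval 69.9 to 85.4), and just outside the choice was cluster 9 with 54.1 CPM (45.3 to 64.3, 986 cells). Cluster 20 followed with 52.6 CPM (37.9 to 71.1, 252 cells) and cluster 16 with 5.62 CPM (2.26 to 11.6, 387 cells), while cluster 26 had 44 cells and did not enter. These intervals cover counting error only. Because Tcf7 chose the cluster, its level there is a description and supports nothing.

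Tcf7 encodes TCF-1, a transcription factor of naive, memory and stem-like CD8 T cells. In chronic infection, tumors and autoimmune diabetes, TCF-1+ CD8 T cells renew themselves and give rise to short-lived killer cells, which lose TCF-1 and gain granzymes and inhibitory receptors such as Pdcd1 (PD-1) and Havcr2 (TIM-3). The gene lies on the minus strand of chromosome 11, at chr11:52252371-52283014 of GRCm38 (mm10).

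The grafts were wild-type (WT) or Rnls mutant (Rnlsmut) NIT-1 cells, a beta cell tumor line of NOD mice, placed under the skin 1 of each on the flanks of the same NOD.scid mouse, which have no mature T or B cells of their own. Every mouse also received splenocytes of recently diabetic NOD mice, so the T cells studied here came from those donors and carried no Rnls mutation by design. Grafts were taken 10 or 17 days after the transfer, and 4 grafts per genotype and day (16 in all) were each marked by a hashtag antibody and sequenced in 4 droplet libraries of 1 genotype and 1 day each. Since each library is a single combination of both, effects of genotype or day cannot be told apart from those of the library, and p-values measure the spread between grafts of a library. Which WT and Rnlsmut grafts shared a mouse is not given with the hashtags, so the tests treat all grafts as separate.

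The cluster held 137 to 191 cells per Rnlsmut graft and 172 to 227 per WT graft at day 10. At day 17 the Rnlsmut grafts gave 101, 81, 73 and 29 cells and the WT grafts 39, 29, 11 and 10. Summed per graft, this amounted to 380057 to 607576 UMIs at day 10 and 50051 to 240721 at day 17, so the day 17 levels, above all those of WT replicates 3 and 4, are the least precise. The median cell had 2659 UMIs over all groups (2813 and 2256 in Rnlsmut, 2535 and 4676 in WT grafts at days 10 and 17) and 1244.5 detected genes. No cell barcode of the cluster was shared between libraries, against 42 over all cells.

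The cluster carried the defining genes of CD8 T cells, although not purely. The 12 genes of the CD8 T cell identity list, among them Cd3d, Cd3e, Trac, Cd8a and Cd8b1, summed to 7050 to 8617 CPM per graft, compared with 6.8 to 29.5 CPM in macrophages of the same grafts. A UMI of Cd8a or Cd8b1 without Cd4 was found in 70.8% of its cells, a UMI of Cd4 without either in 6.74%, both in 2 cells and neither in 397. The share with Cd4 alone was 3.31% in Rnlsmut and 4.79% in WT grafts at day 10, and 15.8% and 19.1% at day 17, with up to 45.5% in WT replicate 3 and 28.8% in Rnlsmut replicate 3. The cells with Cd4 UMIs thus weigh more at day 17, and their part in any day difference below was not tested unless a value without them is given. Foxp3, the factor of regulatory T cells, had no UMI in any of the 1780 cells, which allows up to 0.169% of cells with a UMI but sets no limit on cells that express the gene, and the insulin genes Ins1 and Ins2 had none either.

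Transcripts of macrophages were also counted in the cluster, unequally between libraries. The 17 myeloid marker genes, such as Lyz2, C1qa, Apoe and H2-Ab1, summed to 435 to 501 CPM per Rnlsmut graft and 747 to 805 per WT graft at day 10, and to 2097 to 2426 and 590 to 1186 at day 17. Other CD8 T cells of the same grafts showed like sums of 462 to 508, 775 to 886, 2131 to 4048 and 568.5 to 1218 CPM, and macrophages themselves 36197 to 74106 CPM. The lowest sums thus came with Rnlsmut grafts at day 10 and the highest with Rnlsmut grafts at day 17, without overlap with WT grafts at either day. Of the defining markers, Adgre1 was at 0 in Rnlsmut grafts at day 10, Csf3r in Rnlsmut grafts at day 17, and Fcgr3 and S100a9 in WT grafts at day 17.

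A Tcf7 UMI was found in 16.2% of the cells of the cluster, in 8.87% of other CD8 T cells and in 18.5% of CD4 T cells, but in 0.0557% of macrophages, which have a median of 4719 UMIs and should lack the gene. After thinning each cell to 1000 UMIs, the shares were 7.26%, 4.05%, 8.19% and 0.00926%, in the same order. In 14 of 16 grafts Tcf7 was higher in the cluster than in the other CD8 T cells.

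Within the cluster Tcf7 was measured at 53.6, 86.8, 57.6 and 74.7 CPM in Rnlsmut grafts at day 10 (68.2 ± 15.4, mean ± SD, n = 4) and at 25.5, 95.04, 50.3 and 90.9 in WT grafts (65.4 ± 33.4). At day 17 the values were 141, 134, 79.4 and 178 CPM in Rnlsmut (133 ± 40.8) and 128, 89.1, 50.1 and 120 in WT grafts (96.7 ± 35.2). Most grafts of day 17 lay above those of day 10, with overlap between the days and between the genotypes at each day. Over both genotypes Tcf7 was higher at day 17 by 0.71 ± 0.24 (log2, SE), with an adjusted p of 0.039 by the quasi-likelihood test of edgeR (Benjamini-Hochberg over all genes), which gave every adjusted p below. This call was kept in 14 of 24 alternatives, among them only 7 of the 16 fits that each left out 1 graft (adjusted p up to 0.21 without WT day 17 replicate 1). Genotype gave -0.01 ± 0.27 at day 10 and 0.33 ± 0.38 at day 17, neither of which passed.

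**Figure D1:**
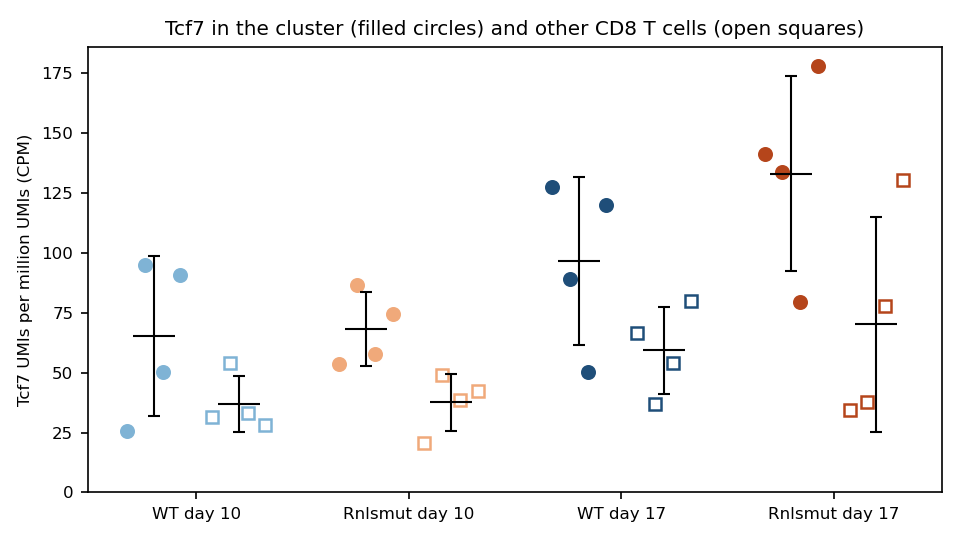
Level of Tcf7 in CPM (y axis) per graft in the cluster (filled circles) and in all other CD8 T cells (open squares), by genotype and day (x axis), with bars for the mean ± SD of 4 grafts. The cluster lay above the other CD8 T cells in 14 of 16 grafts, and its mean was 68.2 and 65.4 CPM at day 10 in Rnlsmut and WT grafts and 133 and 96.7 CPM at day 17.

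Beyond Tcf7, among genes of at least 50 CPM, the largest ratios between the cluster and the other CD8 T cells belonged to genes that were lower in the cluster, such as Ifitm1, Gzma, Ccl4 and Ccl5. Each gene was described by its log2 ratio of CPM in the cluster to that in other CD8 T cells of the same graft (10 CPM added to both), as the mean ± SD over 15 grafts, since WT day 17 replicate 3 had too few other cells. The clusters were made from these same genes, so no test applies. Over all 3267 genes with at least 50 CPM the median ratio was 0.02.

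Gzma, the granzyme that cuts targets of killer cells without classical caspase activation, was lower in every graft, with -2.08 ± 0.35 and a mean of 978 CPM against 4023. Ccl5, a chemokine of effector and memory CD8 T cells, was likewise lower in every graft (-1.35 ± 0.19, 9138 against 23443 CPM). Also lower in every graft were Entpd1 (CD39, an ectoenzyme of exhausted T cells) with -0.97 ± 0.67, the interferon-induced membrane gene Ifitm2 with -1.23 ± 0.75 and Sult2b1 with -1.02 ± 1.03. The ratio of Ifitm2 came with 1014 CPM in cluster 20, while cluster 9 (64.5 CPM) lay below this cluster (96.2 CPM). Ifitm1 showed the largest ratio of all (-2.92 ± 1.56), which came with 6172 CPM in cluster 20, and the chemokine Ccl4 (-2.003 ± 1.19) came with 11780 CPM in the small cluster 26. The effector genes Cx3cr1 (-1.10 ± 0.97) and Klrg1 (-0.77 ± 0.94), the exhaustion factor Tox (-0.99 ± 0.96) and the inhibitory receptor Pdcd1 (-0.84 ± 0.81) were lower on average, and each was higher in at least 1 graft. Tox was not lowest in this cluster (62.6 CPM), since clusters 16 and 20 had 32.9 and 27.5 CPM. Its ratio came with 141 CPM in cluster 9 and 635 CPM in cluster 26. Of the 15 lowest genes, 5 were lower in every graft and 9 had their lowest level in this cluster among the 4 clusters of CD8 T cells compared.

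The genes on the higher side had small ratios that varied between grafts. Only Emb (embigin, a partner of monocarboxylate transporters), Odc1 (ornithine decarboxylase, the first step of polyamine synthesis) and Satb1 (a chromatin organizer of T cell development) of the 25 leading genes were higher in every graft, with 0.72 ± 0.52, 0.70 ± 0.34 and 0.66 ± 0.44. Of these, Emb was higher still in cluster 20 (588 against 543 CPM). Tcf7 itself had 0.77 ± 0.55 and was higher in 14 of 15 grafts, as was the chemokine receptor Cxcr3 (0.91 ± 1.01). Il7r, the receptor of the survival cytokine IL-7, had 0.67 ± 0.98 and was higher in 12 of 15 grafts, and it was higher still in cluster 20 (751 against 490 CPM). Serpinb1a (0.94 ± 1.12), Aff3 (0.89 ± 0.74) and Mir155hg (0.77 ± 0.89) led as well, and so did the chemokine Cxcl10 (79.5 against 40.0 CPM), whereas Ifit1 (0.91 ± 1.79) had an SD about as wide as 2 times its mean. Of the 25 genes, 16 had their highest level in this cluster and 5 a mean ratio above their SD.

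Among the stem-like and memory genes, 13 of 19 with at least 50 CPM were higher and 6 lower in the cluster, with a median ratio of 0.21. Tcf7, which chose the cluster, is 1 of the 13. Lef1, the relative of TCF-1, had 0.31, Bach2, a repressor of effector differentiation, 0.43, and Slamf6, a surface marker of stem-like cells, 0.41. The list was not uniform, since Bcl2 (-0.37), an anti-apoptotic gene, and Gzmk (-0.31) stood on the lower side. The cytotoxic list held 3 higher and 17 lower genes of 20 (median -0.46) and the inhibitory receptor list 1 and 9 of 10 (-0.44). Of the interferon response genes 18 of 23 were higher (median 0.28), and of the glycolysis genes 13 of 14 (0.17). Genes that let T cells recirculate through lymph nodes were split, with 5 higher and 5 lower of 10 (0.04). The lymph node receptor Ccr7 was higher at a low level (49.3 against 13.2 CPM, 1.36 ± 0.95), while Klf2, which drives egress, was lower (-0.63). The members of the list thus lay on both sides, and the gene that chose the cluster was found in 16.2% of its cells. Over 8475 genes the cluster correlated with cluster 9 at r = 0.991 (log2 CPM across genes, which are not independent).

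The first question of the design was whether the share of the cluster among CD8 T cells depends on the genotype of the graft. None of the 40 leading genes was called between genotypes at either day in all CD8 T cells, so cluster sizes are compared between genotypes here. Since WT grafts of day 17 had few CD8 T cells, the lack of calls does not show that cells were assigned to clusters alike. By contrast, 17 of the 40 were called between days, so the sizes are not compared between days here. At day 10 the cluster made up 51.3%, 53.1%, 49.7% and 41.2% of CD8 T cells in Rnlsmut grafts (48.8 ± 5.28%) and 51.3%, 51.2%, 44.1% and 51.0% in WT grafts (49.4 ± 3.54%). The groups overlapped, with a difference of -0.59 percentage points and a two-sided exact permutation p of 0.8. At day 17 the shares were 70.6%, 68.6%, 69.5% and 67.4% in Rnlsmut grafts (69.1 ± 1.35%, n = 4) and 48.1%, 64.4% and 43.5% in WT grafts (52.0 ± 11.01%, n = 3), where replicate 3 with 18 CD8 T cells (61.1%) was below the minimum of 20. All Rnlsmut grafts lay above all WT grafts, by 17.0 percentage points on average. The two-sided exact permutation p was 0.0286, the smallest that 35 assignments can give, and 0.0571 after Benjamini-Hochberg adjustment over the 2 comparisons. WT shares rest on 45 or fewer CD8 T cells in 3 of 4 grafts, so that their 95% exact binomial intervals are wide (23.2% to 65.5% in replicate 4).

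The share depended on the denominator. Counted per CD45+ cell, the cluster made up 5.204 ± 0.151% in Rnlsmut and 4.14 ± 3.11% in WT grafts at day 17, a difference of 1.06 points (exact permutation p = 0.543), and of all T cells the difference was 6.33 points (exact permutation p = 0.143). Limited to cells with a UMI of Cd8a or Cd8b1 and none of Cd4, the difference was 16.1 points (exact permutation p = 0.114).

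**Figure D2:**
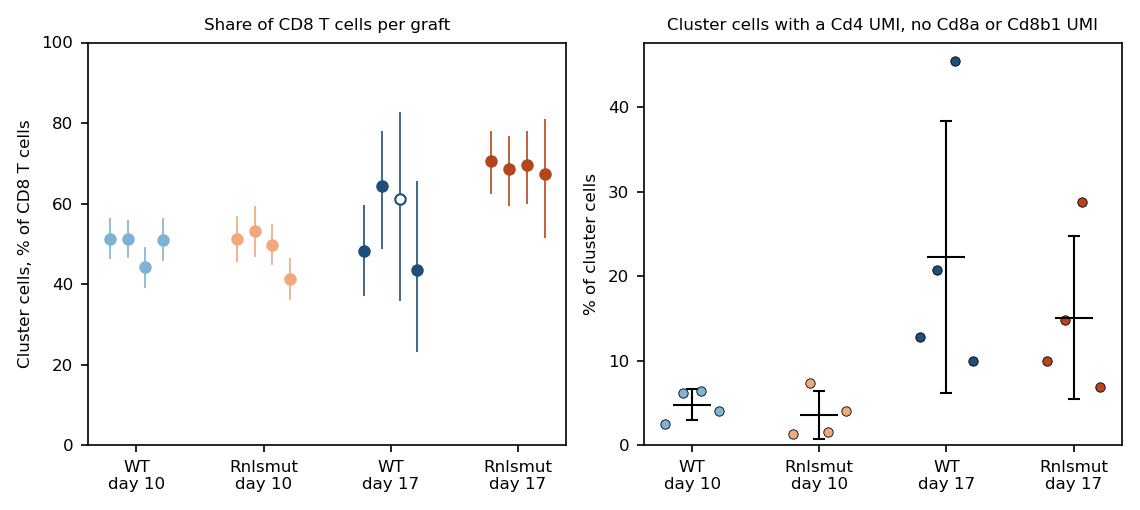
Left, share of the cluster among CD8 T cells of each graft in percent (y axis) with 95% exact binomial intervals, by genotype and day (x axis), where the open symbol is the graft under 20 CD8 T cells. Right, percent of cells of the cluster with a Cd4 UMI and none of Cd8a or Cd8b1, with bars for the mean ± SD of 4 grafts, which reached 45.5% in a graft of day 17.

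The second question was which genes of the cluster differed between Rnlsmut and WT grafts. Few did, and the calls with the smallest p at each day included genes of macrophages and antigen presentation. At day 10, 12 of 4991 tested genes were called (0.24%), all lower in Rnlsmut grafts, and at day 17, 15 genes (0.301%), of which 13 were higher (0.26%) and 2 lower (0.0401%). Over both days none was called at an adjusted p of 0.05, by edgeR or DESeq2, with 290 genes at an unadjusted p under 0.05. At neither day was any member called of the lists of stem-like (20 of 25 members were high enough to be tested), cytotoxic (20 of 25), inhibitory receptor (11 of 16), T cell receptor (17 of 20), interferon (32 of 42), glycolysis (17 of 21) or TGF-beta genes (10 of 14). Their median log2 differences between Rnlsmut and WT lay between -0.04 and 0.32 at day 10 and between -0.43 and 0.29 at day 17. The widest medians belonged to the glycolysis list, with 0.32 at day 10 and -0.43 at day 17. Of the myeloid list (9 of 17 tested) 3 genes were lower at day 10 (median -1.07) and 5 higher at day 17 (1.78), beside medians over all genes of 0.01 and -0.00.

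Ccl8, a monocyte-attracting chemokine of macrophages, was counted at 83.6, 123, 94.1 and 99.4 CPM in WT and 43.3, 39.5, 31.3 and 26.5 in Rnlsmut grafts at day 10. At day 17 it was 110, 68.6, 184 and 40.0 CPM in WT and 727, 516, 652 and 594 in Rnlsmut grafts. Rnlsmut grafts were thus lower than all WT grafts at day 10 (-1.54 ± 0.23, adjusted p = 0.00043) and higher than all at day 17 (2.67 ± 0.24, adjusted p = 1.1e-08). In macrophages of the same grafts Ccl8 had means of 4166 and 3412 CPM (WT and Rnlsmut) at day 10 and of 3914 and 5550 at day 17, and in other CD8 T cells the difference at day 17 was 2.47.

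H2-Ab1, the beta chain of MHC class II, moved in the same way. It was 116, 91.7, 114 and 86.7 CPM in WT and 47.4, 36.8, 41.1 and 40.9 in Rnlsmut grafts at day 10, and 63.8, 41.1, 50.1 and 99.9 against 278, 283, 261 and 327 at day 17. The groups did not overlap at either day, with -1.31 ± 0.19 (adjusted p = 0.00043) and 2.26 ± 0.25 (adjusted p = 1.1e-06). The other myeloid genes called were Cd74 and H2-Aa at day 10 (-1.07 and -1.09) and H2-Aa (2.31), Lyz2 (1.78), C1qa and Cd74 (1.13) at day 17. The myeloid sums given above moved in the same order between the libraries, and their part in these calls was not tested. Without cells that held UMIs of other lineages (1053 cells were left, and at day 17 only 2 grafts of each genotype had 10 of them), 7 genes were called at day 10 and 3 at day 17. Ccl8 was still called there at both days (-1.50 and 3.16). H2-Ab1 was called at neither, with differences of -0.98 (adjusted p = 0.25) and 3.21 (adjusted p = 0.56), and since this step removes cells by their UMIs of the myeloid list, to which H2-Ab1 belongs, it acts on the values of that gene directly.

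Crip1, which encodes a small LIM domain protein, was also called at day 17. It was measured at 1451, 1426, 1570 and 2178 CPM in WT and at 3132, 2918, 3033 and 3044 CPM in Rnlsmut grafts at day 17. The grafts did not overlap, and the difference was 0.92 ± 0.12 (adjusted p = 1.8e-05), which was 1.27 (adjusted p = 0.0051) without cells of other lineages. At day 10 it was 3546, 3830, 4268 and 4028 CPM in WT and 2904, 3300, 3906 and 3083 in Rnlsmut grafts, which overlapped (-0.28 ± 0.10, adjusted p = 0.55). The 2 genes lower in Rnlsmut grafts at day 17 were Rnf8, a ubiquitin ligase (-2.32 ± 0.52), and Ubb, a ubiquitin gene (-0.65 ± 0.15), both with an adjusted p of 0.038, a call kept in 8 of 15 alternatives for Rnf8 and in 9 of 25 for Ubb. Among the other genes lower at day 10 were the long noncoding Malat1 (-0.32) and Sema3c (-1.42), and Gm42418, which overlaps ribosomal RNA, was lower at day 10 (-0.54) and higher at day 17 (0.83).

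The difference of the genotype effect between days was called for 26 genes (0.521%), 24 of them more positive (0.481%) and 2 more negative (0.0401%) at day 17. Ccl8, which is not on the myeloid list, had the smallest p (4.21 ± 0.33), and 6 of the 9 tested genes of that list were called. Of the T cell lists, Cd3e of the identity list and Socs3, a feedback inhibitor of cytokine signals (-2.09 ± 0.50, adjusted p = 0.046), were called, the latter in 7 of 23 alternatives only. Socs3 was at 145, 82.3, 134 and 79.9 CPM in WT and at 37.4, 24.8, 73.7 and 0 in Rnlsmut grafts at day 17, without overlap.

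The genes that the study follows were not called between genotypes in the cluster. The study reports Tgfb1 in NK cells, Ifng and Tnf in ILC1, and PD-L1 as a surface protein of antigen-presenting cells. RNA of a CD8 T cell cluster is not a test of those reports. Tgfb1, the TGF-beta ligand, was 96.4, 135, 101 and 114 CPM in WT and 171, 171, 151 and 152 in Rnlsmut grafts at day 10. All Rnlsmut grafts lay above all WT grafts, yet the difference of 0.49 ± 0.17 did not pass over all genes (adjusted p = 0.47), and at day 17 the grafts overlapped (0.21 ± 0.25). Ifng, the main cytokine of killer cells, was 435, 96.0, 701 and 799 CPM in WT and 116, 119, 221 and 401 in Rnlsmut grafts at day 17 (-1.25 ± 0.43, adjusted p = 0.32), with overlap. Tnf and Cd274 (PD-L1) had adjusted p-values of 0.89 or more at both days, and Osm (oncostatin M), with at most 20.0 CPM in a graft, was too low to be tested.

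The third question was how the cluster changed between day 10 and day 17. Here 788 of 4991 genes were called over both genotypes (15.8%), 403 higher at day 17 (8.07%) and 385 lower (7.71%). Within WT grafts 372 genes were called (7.45%), 178 higher (3.57%) and 194 lower (3.89%), and within Rnlsmut grafts 314 (6.29%), 187 higher (3.75%) and 127 lower (2.54%). Both had 126 in common, which is 33.9% of the former and 40.1% of the latter, 124 of them with the same sign. Without the cells of other lineages 241 genes were called, of which 186 were among the 788. With cells that had a Cd8a or Cd8b1 UMI and none of Cd4, 528 were called, 470 of them shared.

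Of the stem-like and memory list, 7 of 20 tested genes were higher at day 17 and 2 lower (median 0.17, beside 0.00 over all genes). Tcf7 is given above. Il7r was 298 to 517 CPM at day 10 (median 479, n = 8) and 459 to 831 at day 17 (682). The days overlapped only in the lowest day 17 graft, and the difference was 0.53 ± 0.13 (adjusted p = 0.0038). Bcl2, which lies downstream of IL-7 in T cell survival, was 52.7 to 118 CPM (median 70.9) at day 10 and 92.8 to 343 (165) at day 17, with an increase of 1.17 ± 0.21 (adjusted p = 0.00017). The days overlapped slightly, and WT replicate 2 was highest.

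Lef1 was 129, 163, 116 and 148 CPM in WT and 223, 187, 148 and 193 in Rnlsmut grafts at day 10, and 313, 267, 184 and 200 against 328, 194, 176 and 312 at day 17. It increased by 0.58 ± 0.15 (adjusted p = 0.0054), with overlap between the days. Bach2 was 179 to 292 CPM (median 255) at day 10 and 250 to 516 (377) at day 17 and increased by 0.60 ± 0.13 (adjusted p = 0.0019). Foxp1, a quiescence factor, and Cd28, the costimulatory receptor, were higher by 0.57 and 0.40. Lower at day 17 were Myb, a factor of stem-like cells (-1.67 ± 0.30, adjusted p = 0.00021), and Foxo1, which maintains Tcf7 and Il7r expression in naive and memory cells. Without cells of other lineages Tcf7 (1.16, adjusted p = 0.039), Lef1 (0.79), Bach2 (0.96) and Myb (-2.09) were still called, whereas Il7r (0.59, adjusted p = 0.061), Bcl2 (1.01, 0.12), Foxp1 (0.50, 0.19) and Cd28 (0.40, 0.19) were not.

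Genes of lymphoid recirculation were split, with 3 of 12 higher and 1 lower. Klf2 was 61.3 to 201 CPM (median 110) at day 10 and 150 to 520 (209) at day 17, an increase of 0.95 ± 0.20 (adjusted p = 0.00095). Its target S1pr1, the receptor that lets T cells leave tissue, went the other way, with 192 to 301.2 CPM (median 243) at day 10 and 74.2 to 247 (139) at day 17 (-0.82 ± 0.18, adjusted p = 0.0014). Both ranges overlapped between the days.

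**Figure D3:**
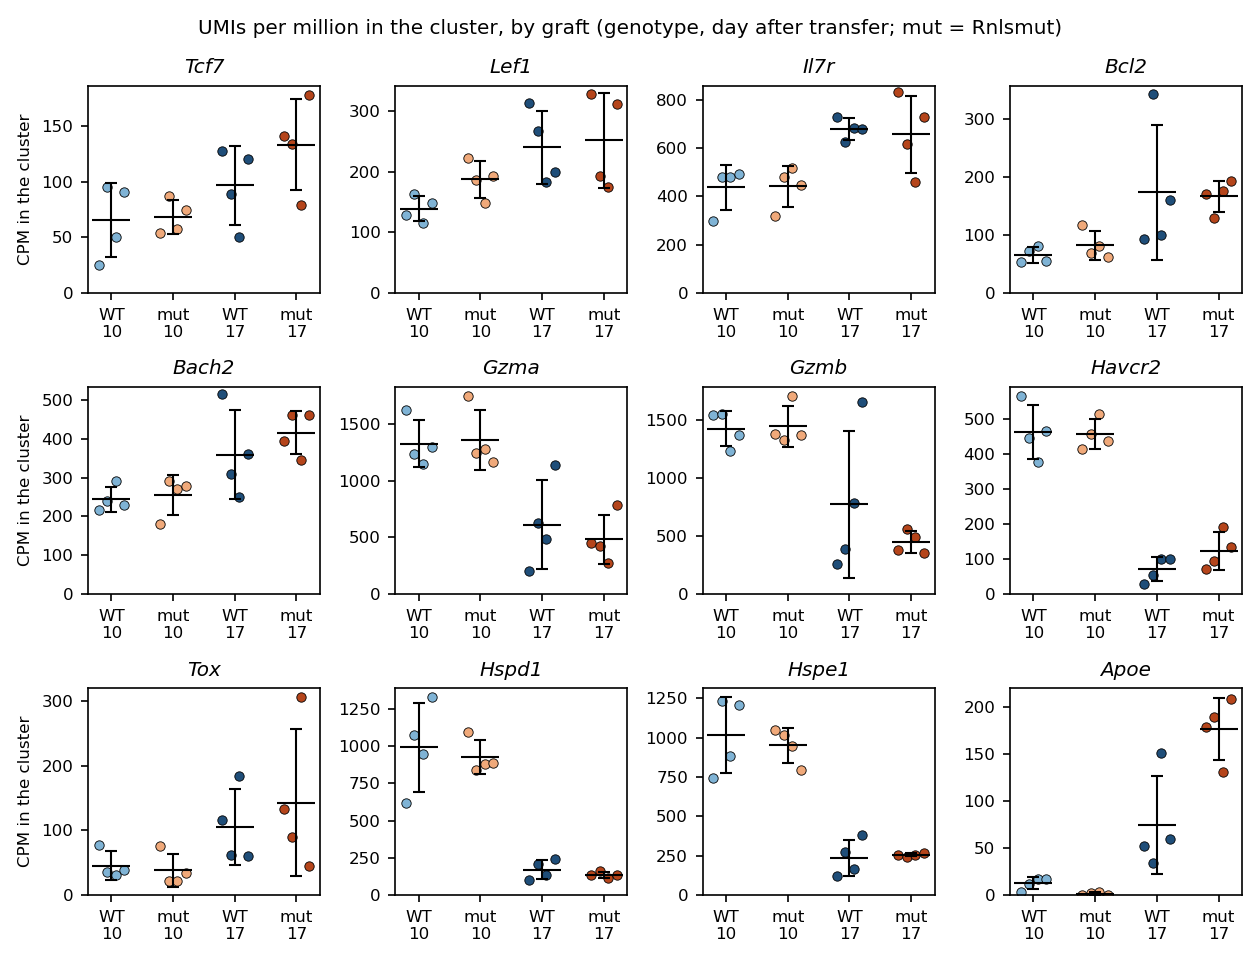
Level in CPM (y axes) of 12 genes in the cluster per graft, by genotype and day (x axes), with points for grafts and bars for mean ± SD of 4 grafts. Gzma and Havcr2 lay lower in every graft of day 17 than in any of day 10, while Apoe lay higher in every graft of day 17.

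The granzyme genes Gzma and Gzmb fell between the days. Gzma was 1627, 1236, 1153 and 1296 CPM in WT and 1751, 1250, 1277 and 1171 in Rnlsmut grafts at day 10, and 203, 624, 484 and 1139 against 453, 422, 278 and 787 at day 17. The days did not overlap (-1.51 ± 0.18, adjusted p = 2.3e-07). Gzmb, the granzyme that activates caspases, was 1236 to 1705 CPM (median 1374) at day 10 and 261 to 1658 (439) at day 17, where WT replicate 4 with 10 cells stayed in the day 10 range (-1.48 ± 0.19, adjusted p = 7.8e-07). Of the cytotoxic list 5 of 20 tested genes were lower, also Id2, Serpinb9 and Lgals1, and only Ccl4 was higher (1.13 ± 0.25, adjusted p = 0.0016). The pore protein Prf1 (-0.39 ± 0.18, adjusted p = 0.14) and Ccl5 (0.04 ± 0.06, adjusted p = 0.72) were not called, and the median of the list was -0.13. In other CD8 T cells Gzma and Gzmb differed by -1.40 and -1.85 between the days.

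Inhibitory receptors and exhaustion genes moved in both directions, with 4 of 11 higher and 3 lower. Havcr2 was 565, 447, 378 and 465 CPM in WT and 415, 458, 515 and 438 in Rnlsmut grafts at day 10, and 29.0, 54.8, 100 and 99.9 against 70.6, 94.3, 193 and 134 at day 17. It fell by 2.55 on the log2 scale (SE 0.18, adjusted p = 3.1e-12), without overlap between the days. Tox, which fixes the exhausted state, was 21.05 to 78.2 CPM (median 34.4) at day 10 and 44.5 to 306 (103) at day 17 (1.51 ± 0.32, adjusted p = 0.0011), and Ctla4 was higher by 0.98 ± 0.24 (adjusted p = 0.0054). With cells that had a UMI of Cd8a or Cd8b1 and none of Cd4, neither Tox (0.68, adjusted p = 0.27) nor Ctla4 (0.61, 0.14) was called. Among the other genes called were the activation-induced Nr4a2 and Nr4a3 on the higher and Rgs16 on the lower side, while Pdcd1 was not called (-0.66 ± 0.35, adjusted p = 0.22).

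In the list of T cell receptor signaling and immediate early genes, 9 of 17 tested genes were higher at day 17 and 1 lower, with a median of 0.91. Cd69, an early activation marker that also retains cells in tissue, was 107 to 200 CPM (median 133) at day 10 and 223 to 651 (328) at day 17. The days did not overlap (1.21 ± 0.17, adjusted p = 6.7e-06). Junb, an AP-1 subunit, was 342 to 655 CPM (median 516) and 761 to 2071 (947), again without overlap (1.07 ± 0.14, adjusted p = 2.1e-06). Nr4a1 (Nur77), which follows T cell receptor strength, was 41.6 to 140 CPM (median 73.2) and 68.6 to 367 (240), with overlap (1.33 ± 0.22, adjusted p = 7.3e-05). In contrast, Tnfrsf9 (4-1BB), a costimulatory receptor of antigen-activated cells, was lower (-1.03 ± 0.22, adjusted p = 0.0013). These 4 genes were also called without the cells of other lineages. The day effect of the list differed from that in other CD8 T cells for 1 of 17 genes only (Tnfrsf4, more negative in the cluster). The median difference was -0.07, so the rise was not particular to the cluster.

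Of the remaining lists, tissue residence and homing had 5 of 11 genes higher, among them Itga1 (1.10), and Cxcr6 lower (-0.45 ± 0.11, adjusted p = 0.0039). No interferon response gene was higher and 5 of 32 were lower, such as Irf7 (-0.88 ± 0.22, adjusted p = 0.0057). The calls of Irf7, Ifi27l2a and Irf9 were kept in 22, 13 and 11 of 24 alternatives. The TGF-beta list had 3 of 10 genes higher and none lower. Tgfbr2, the receptor chain that binds the ligand, was 99.4 to 175 CPM (median 142) at day 10 and 179 to 260 (235) at day 17, which did not overlap (0.58 ± 0.13, adjusted p = 0.0022), and its inhibitor Smad7 was higher by 0.56 ± 0.14. None of 13 cell cycle genes passed, and 1 of 17 glycolysis genes (Hk2, lower) did. Cd8b1 was lower (-0.39 ± 0.12, adjusted p = 0.025) and Cd4 higher (2.09 ± 0.34, adjusted p = 5.2e-05), which goes with the larger share of cells with Cd4 UMIs at day 17. All 9 tested myeloid genes were higher, led by Apoe (0 to 17.5 CPM at day 10 and 34.3 to 208 at day 17, 4.32 ± 0.38). Within Rnlsmut grafts 9 of 9 were higher (median 2.89), and within WT grafts Apoe was higher, H2-Ab1 lower and the other 7 not called (median 0.19).

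**Figure D4:**
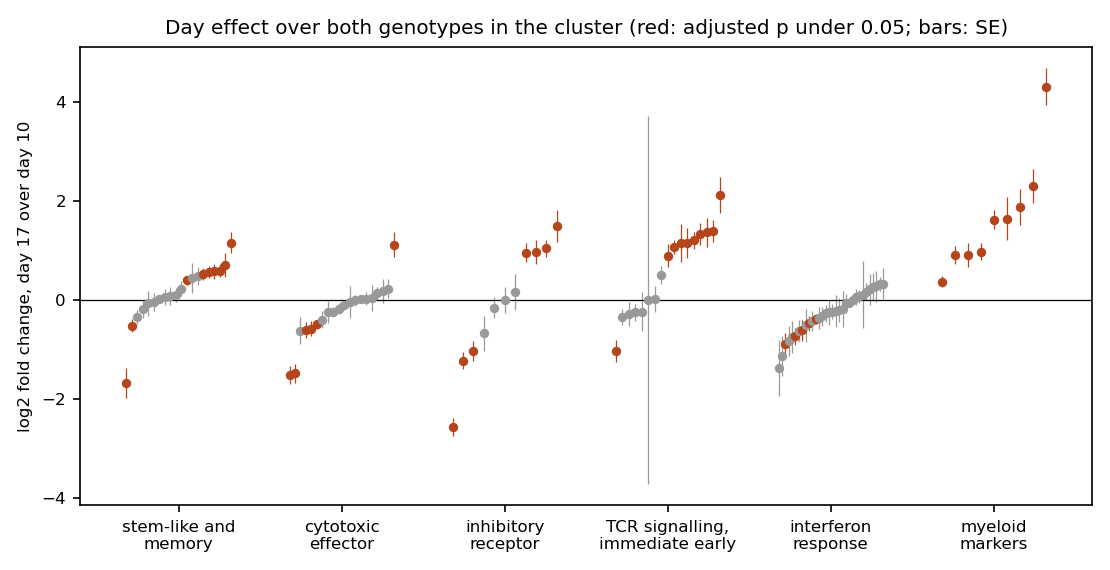
Log2 fold change between day 17 and day 10 over both genotypes (y axis, bars for SE) of the tested genes of 6 lists (x axis, ordered by value within a list) in the cluster, red where the adjusted p was under 0.05 and grey otherwise. Of the T cell receptor and immediate early list 9 of 17 genes lay above 0 in red (the long bar is Myc, SE 3.71), and of the cytotoxic list 5 of 20 lay below 0 in red.

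The smallest p-values between the days belonged to heat shock genes, chaperones that heat shock factor 1 (HSF1) induces when proteins unfold. Hsp90aa1 was 1529 to 2814 CPM (median 2501) at day 10 and 281 to 480 (370) at day 17. The mitochondrial chaperonin pair Hspd1 (HSP60) and Hspe1 (HSP10) went from 616 to 1330 CPM (median 918) to 98.6 to 240 (135) and from 746 to 1236 (981) to 122 to 380 (254). The days did not overlap for any of them, with -2.78 ± 0.12 (adjusted p = 5e-17), -2.76 ± 0.16 (3.5e-14) and -2.14 ± 0.15 (1.6e-12). Hspa1a, the inducible HSP70, was 100, 263, 252 and 414 CPM in WT and 716, 397, 392 and 294 in Rnlsmut grafts at day 10. At day 17 it was 0, 0, 16.7 and 0 against 8.31, 9.92, 45.4 and 29.7, but reads of Hspa1a and its near-identical copy Hspa1b may be split between them, so each is uncertain. In all, 15 of 36 tested Hsp and Dnaj genes were lower and none higher (median -0.28), a group that was chosen after its values were seen. The same was found in other CD8 T cells (Hsp90aa1 -2.98, Hspd1 -3.12), and in macrophages Hsp90aa1 went from means of 2301 and 2435 CPM to 391 and 321 (WT and Rnlsmut). It was therefore not particular to the cluster and went with the libraries of each day.

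Promoters of these genes are shown because the group moved together and HSF1 binds a known motif, inverted repeats of GAA. RefSeq promoters (GRCm38.p6, 250 bases before the start) were searched for GAANNTTC, which reads the same on both strands. It was found in 7 of the 12 Hsp and Dnaj genes lower at day 17 that had a promoter in the table (58.3%), compared with 7.73% of all 27025 promoters and 6.37% of those of tested genes. Hspa1a and its near-identical copy Hspa1b both count among the 7, as do the neighbors Hspd1 and Hspe1, so the 7 are not all independent. The share in Hsp and Dnaj genes that were not lower was not computed, so the motif is not tied to the day difference. Of the 385 genes lower at day 17, 306 had a promoter and 6.21% of them held it. The longer forms GAANNTTCNNGAA or TTCNNGAANNTTC, which contain the former, were in 3 of the 12, Dnajb6, Hspd1 and Hspe1, against 0.514% of all promoters. Windows of 30 bases follow, 5′ to 3′ on the strand of the gene, with the 8-base match in capitals.
Hspa1a, chr17:34972242-34972271, minus strand: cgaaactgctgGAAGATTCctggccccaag
Hspe1, chr1:55088053-55088082, plus strand: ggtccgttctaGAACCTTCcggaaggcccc
Dnaja1, chr4:40722333-40722362, plus strand: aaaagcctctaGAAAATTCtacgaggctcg
Dnajb6, chr5:29735841-29735870, plus strand: ctcagctccgaGAATCTTCcggaacgctag
Dnaja4, chr9:54699458-54699487, plus strand: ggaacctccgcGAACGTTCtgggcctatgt
The window of Hspa1b carries the same letters as that of Hspa1a. The matches begin between 46 and 124 bases before the start site, and Hspd1 and Hspe1 lie head to head on chromosome 1 (55077835-55088243, minus strand, and 55088132-55091307, plus strand). A match is a description of the letters and says nothing about binding in these cells.

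The last question was whether the cluster changed between the days differently from the other CD8 T cells of the same grafts. In a fit over 15 grafts with the graft as a block, 110 of 6409 genes differed in their day effect (1.72%), 95 in the positive (1.48%) and 15 in the negative direction (0.234%). Both populations were drawn from the clusters, which were made from the same genes, so the assignment of cells to clusters and the day effect within them cannot be told apart. The makeup of the other cells moved as well, since cluster 9 made up 62.4% of them in WT and 50.7% in Rnlsmut grafts at day 10, and 73.1% and 74.4% at day 17. In the same order, cluster 26 went from 1.27% and 1.92% to 8.97% and 11.2%. Cluster 20 went from 12.5% and 20.9% to 3.85% and 7.2%, and cluster 16 from 23.8% and 26.5% to 14.1% and 7.2%. Among CD8 T cell clusters, Tox was highest in cluster 26 (635 CPM), and Il7r (751 CPM) and Emb (588 CPM) in cluster 20. The part of this makeup in the differences below was not tested.

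Il7r showed the clearest difference among the stem-like genes. In other CD8 T cells it was 296, 471, 371 and 530 CPM in WT and 198, 485, 534 and 434 in Rnlsmut grafts at day 10, and 266, 296, 54.1 and 459 against 436, 338, 325 and 43.5 at day 17. Thus it was higher at day 17 in the cluster (0.53 ± 0.13) but not in the other cells (-0.53 ± 0.21, adjusted p = 0.09), and the effects differed by 1.06 ± 0.16 (adjusted p = 1.3e-06). All 19 alternatives kept this call, with differences of 0.86 to 1.31. Of 22 tested stem-like genes 5 differed in the positive and none in the negative direction (median 0.26, beside 0.05 over all genes). These were also Bach2 (0.67 ± 0.18, adjusted p = 0.025), Satb1 (0.61 ± 0.15, 0.0063), Slamf6 (1.03 ± 0.30, 0.045) and Myb (adjusted p = 0.0017). Myb was 89.0 to 133 CPM in the other cells at day 10 and 0 to 12.99 at day 17, with no UMI in any WT graft, so that the size of its difference cannot be given. Slamf6 was kept in 7 of 19 alternatives only. Tcf7 itself did not differ (0.33 ± 0.35, adjusted p = 0.86), so its day effect was not distinguished from that of other CD8 T cells.

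Tox was the reverse case. In the other CD8 T cells it was 65.2, 37.2, 38.9 and 39.7 CPM in WT and 99.8, 42.7, 31.9 and 45.6 in Rnlsmut grafts at day 10, and 778, 370, 514 and 280 against 264, 363, 546 and 218 at day 17, without overlap between the days. Tox increased there by 2.99 ± 0.23, compared with 1.51 ± 0.32 in the cluster, and the difference of -1.57 ± 0.25 (adjusted p = 4.2e-06) was called in all 19 alternatives (-1.70 to -1.17). Maf (-1.63 ± 0.30), a factor of exhausted and regulatory T cells, and Ikzf2 (-1.70 ± 0.31), the regulatory T cell factor Helios, differed in the same direction, although neither did among cells with a UMI of Cd8a or Cd8b1 and none of Cd4 (adjusted p = 0.53 and 0.75). Havcr2 fell further in the cluster (-2.55 against -1.72, difference -0.93 ± 0.26, adjusted p = 0.037), a call kept in 8 of 19 alternatives, with -0.01 without WT day 17 replicate 1. Cd4 rose less in the cluster (2.09 against 3.45, difference -1.58 ± 0.45, adjusted p = 0.037), a call kept in 8 of 18 alternatives.

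Emb, one of the genes higher in the cluster in every graft, was 427 to 599 CPM at day 10 (median 525) and 436 to 760 at day 17 (608) there. In the other cells it fell by 0.80 on the log2 scale (adjusted p = 0.0003), a difference of 0.96 ± 0.16 (adjusted p = 2.1e-05). Genes of cytosolic ribosomal proteins made up 55 of the 95 positive calls, out of 81 tested, with a median difference of 0.33 (day effects of -0.09 in the cluster and -0.40 in other cells). This group was chosen after its values were seen. Rpl21 (0.59 ± 0.09), Rps28 (0.50 ± 0.07), Rpl32 (0.46 ± 0.07), Rplp0 (0.48 ± 0.08) and Rps19 (0.46 ± 0.08) had adjusted p-values of 3.1e-05 or less. Of the interferon response list 3 of 32 genes differed, all positive (Ifit1, Gbp2 and Ly6a). For the genotype effect, no gene differed between the cluster and the other CD8 T cells at an adjusted p of 0.05 in edgeR, with 332 genes at an unadjusted p under 0.05.

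**Figure D5:**
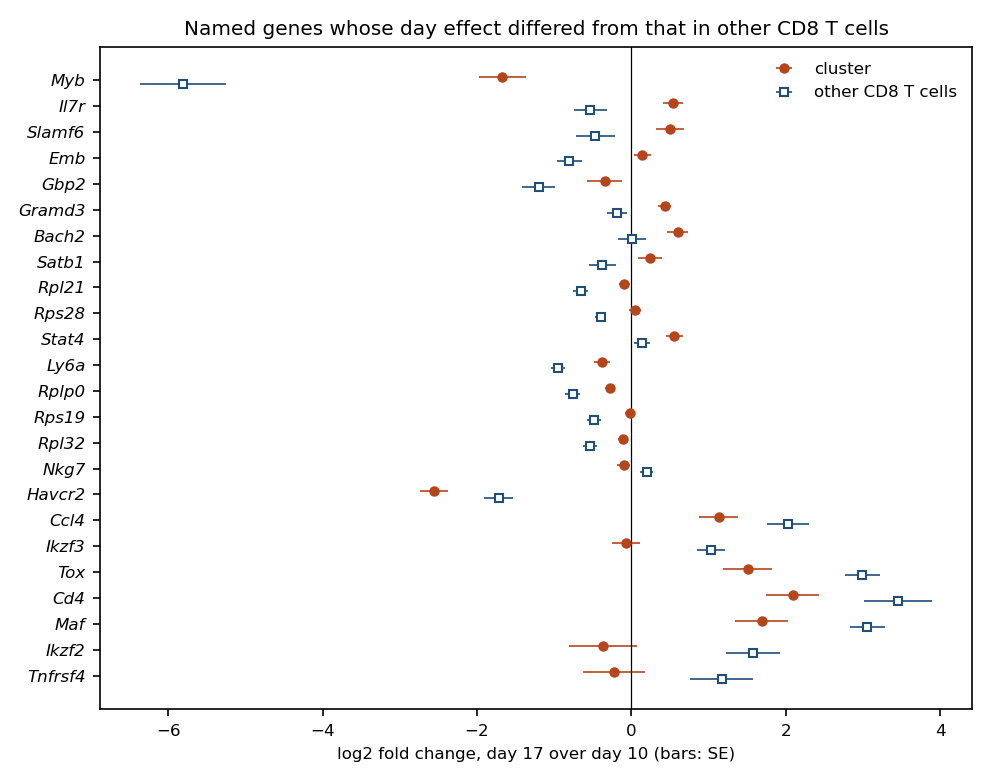
Log2 fold change between day 17 and day 10 (x axis, bars for SE) in the cluster (filled circles) and in other CD8 T cells (open squares) for 24 named genes (y axis) whose day effect differed between them. The circle of Il7r lay to the right of its square (0.53 and -0.53) and that of Tox to the left (1.51 and 2.99).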

How the data were processed

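CD45+ cells of 16 grafts were sequenced by 10x Genomics 3′ chemistry (v3.1) with cell hashing. The authors deposited raw UMI counts of 32285 genes in 22441 cells, with the library, hashtag, cluster and cell type of each cell. The submitters' processing notes name Cell Ranger and mm10. Filters on cells, hashtag assignment and the treatment of doublets are not given in the sources used here, and no doublet caller was run. No cell had under 1001 UMIs, and the highest mitochondrial share was 9.74%. The level of Rnls is not analysed here, and some list members are not reported here.

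Each graft (library and hashtag) counted as 1 replicate. Counts of the cluster were summed per graft with at least 10 cells, which all 16 had, and tested with edgeR 4.0.16 (TMM, filterByExpr, glmQLFit, glmQLFTest) in R 4.3.3, all groups in 1 fit, at a Benjamini-Hochberg adjusted p of 0.05. The comparison with other CD8 T cells used 15 grafts, with the graft as a block and an interaction of population and group. The SE of a log2 difference was calculated back from its test, as the absolute difference over the square root of the F statistic. It is unreliable where F is very small. Shares were compared by exact permutation over grafts with at least 20 CD8 T cells. CPM are UMIs of a gene over all UMIs of the summed cells, times 1000000. Positions came from GENCODE for GRCm38, where 31424 of 32285 names matched.

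The members, the 18 gene lists (306 of 308 genes in the table) and the tests were chosen with earlier results of these data known. Named were the 25 highest and 15 lowest genes by ratio to other CD8 T cells, list members, at most 8 genes per direction and comparison with the smallest p, and Tcf7, Tgfb1, Ifng, Tnf, Osm and Cd274. The heat shock and ribosomal protein groups, the promoter motif and the restriction to cells with Cd8a or Cd8b1 and no Cd4 (at least 5 cells per graft) were chosen after seeing the data. Alternatives were DESeq2 1.42.0, no filter, 5 or 20 cells per graft, a block for the hashtag number, fits of 1 day, removal of cells with 1 Cd4 UMI or 3 UMIs of myeloid or B cell genes, the nearest cluster as the comparison, and each graft left out. The scripts were tested on simulated data.

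Deviations from the group mean were correlated between grafts of both genotypes over 2495 genes. Same-numbered grafts had r from -0.04 to 0.40 at day 10 and 0.04 to 0.09 at day 17. Differently numbered grafts had r from -0.21 to 0.16 and from -0.09 to 0.07. The highest r of each day thus came from a same-numbered pair, which does not settle whether the numbers pair the grafts. The hashtag numbers were not taken as pairs. WT and Rnlsmut grafts came from the same mice, but which hashtags belong to 1 mouse is not given in the sources used here.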

Additional observations from a re-analysis of the deposited data

Results flagged for a closer look

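In 5 of 79 groups of 4 grafts, 1 graft stood far from the others relative to the range of its group, which chance gives in about 1 in 20 groups. The share of the cluster was 44.1% in WT day 10 replicate 3 (the others 51.0% to 51.3%). In WT day 10 replicate 1, Il7r was low at 298 CPM (others 479 to 495) and Tox high at 78.2 CPM (others 30.6 to 38.1). Gzmb was 1705 CPM in Rnlsmut day 10 replicate 3 (others 1326 to 1376), and Hspa1a 16.7 CPM in WT day 17 replicate 3, a graft with 11 cells and 59882 UMIs. The fellow grafts of the latter were at 0, so any UMI of Hspa1a would have set it apart.

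The genotype effect at day 17 differed from that at day 10 for 26 genes in the test of the difference. Among them were H2-Ab1 (3.57, log2), H2-Aa (3.396), Cd74 (2.20), Lyz2 (2.75), Ccl8 (4.21) and Ccl6 (3.58), genes of macrophages and antigen presentation, beside Crip1 (1.195) and Gm42418 (1.37), and, with the opposite sign, Socs3 (-2.09) and Gm8797 (-1.12).

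The day effect in the cluster differed from that in other CD8 T cells for 110 genes. Larger in the cluster were Il7r (1.06), Emb (0.96), Gramd3 (0.67) and the ribosomal protein genes Rpl21 (0.59), Rps28 (0.50), Rplp0 (0.48), Rpl32 (0.46) and Rps19 (0.46). Smaller in the cluster were Tox (-1.57), Maf (-1.63), Ikzf2 (-1.70), Ikzf3 (-1.08), Tnfrsf4 (-1.77), Ccl4 (-1.06), Zfp212 (-2.37) and Areg (-3.47), the last of which rested on WT day 17 replicate 1.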

How the results depend on the processing

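The number of cells is 1 limit of these results, since WT grafts at day 17 gave 10 to 39 cells of the cluster, and the removal of cells with UMIs of other lineages left 1053 of 1780 cells. With that removal, called genes numbered 7 and 3 for genotype at days 10 and 17 (12 and 15 with all cells), 131 and 50 for day in WT and Rnlsmut (372 and 314), 241 for day over both (788) and 5 for the difference of the genotype effect (26), and 6 genes changed sign between the days, all without a call: H2-Ab1 (-0.80), Cst3 (-0.63), Socs3 (-0.18), Fos (-0.15), H2-Aa (-0.037) and Cd74 (-0.0066). With no filter on low counts, 33, 31 and 8 genes were called for genotype at day 10, day 17 and over both days, 55 for the difference of the genotype effect and 4 for the genotype difference from other CD8 T cells. With at least 20 cells per graft, 20 genes were called for genotype at day 10 and 3 for the genotype difference from other cells, where Ifit1 turned to -0.23 between the days. Each day fitted alone gave 25 and 9 genotype calls. Against the nearest cluster 170 genes differed in day effect and Ccl4 turned to 0.063, and with Cd8a or Cd8b1 and no Cd4, 1 gene differed in genotype effect. The day 17 share difference between genotypes (17.0 points) was 22.0 points without cells of other lineages, 16.1 with Cd8a or Cd8b1 and no Cd4, 6.33 of all T cells and 1.06 of CD45+ cells, none of which passed, the first in a design that could not reach 0.05. The causes were not tested.

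With each graft left out in turn, the share difference ranged from 12.8 to 23.2 points at day 17 (p from 0.0286 to 0.1, where 3 against 3 or 4 against 2 grafts cannot reach 0.05) and from -2.36 to 1.96 at day 10. Called genes ranged from 3 to 16 for genotype at day 10, 10 to 23 at day 17 and 0 to 0 over both, from 221 to 408 for day in WT, 176 to 368 in Rnlsmut and 572 to 829 over both, from 18 to 33 for the difference of the genotype effect, from 87 to 142 for the day difference and from 0 to 3 for the genotype difference from other cells. The day 10 genotype count fell below 8 without any Rnlsmut day 10 graft (3 to 6) or without WT day 10 replicates 2, 3 or 4 (4 to 7), and the day 17 count rose to 23 without WT replicate 3. The day count in WT was lowest without WT day 17 replicate 1, and that in Rnlsmut without day 17 replicates 1 (176) and 2 (189). The day difference of Areg ranged from -3.78 to 1.16, the latter without WT day 17 replicate 1.

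With the hashtag number as a replicate block, 10, 12 and 0 genes were called for genotype at day 10, day 17 and over both, 342, 284 and 719 for day in WT, Rnlsmut and over both, and 24 for the difference of the genotype effect, so every count stayed within 1.5 times its value. Whether the numbers pair the grafts was not settled. DESeq2 gave 132 results with the same call and 4 without. The comparison with other CD8 T cells could not be run without cells of other lineages, since no Rnlsmut graft of day 17 had enough of them, and the planned comparison of shares between days is not reported, for the reason given with the shares.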
